A study of Homo sapiens with 3 samples.

Results

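The nuclear genes of oxidative phosphorylation were examined in HSC-3 cells, an established line of tongue squamous carcinoma, on 3 arrays of 1 colour (Cy5). The shDKK3 array came from cells infected with a lentivirus that carries a short hairpin RNA against DKK3, the shScr array from cells with a non-effective hairpin in the same kind of GFP vector, and the parental array from cells with no hairpin. Both hairpin lines were grown with puromycin and the parental cells were not, and the labels do not say whether a line was 1 clone. With 1 array for each condition there is no replicate, no test and no p-value, and every difference is between arrays. The genes were chosen by symbol: names that begin with NDUFA, NDUFB, NDUFC, NDUFS, NDUFV, UQCR, COX4 to COX8 or ATP5, with SDHA to SDHD, CYC1 and CYCS. This gave 89 genes, measured by 99 probes, of 17614 named genes on the array. Of these, 82 were counted as subunits or cytochrome c and 7 are caught by their names alone. The 82 include COX7A2L, a factor that joins respiratory complexes, and NDUFA4L2, both placed in a complex by name. A probe counted as detected where its spot was brighter than the mean of the blank spots plus 2 SD, and 85 members were detected on all 3 arrays, 2 on some (CYCS and COX8C) and 2 on none (COX7B2 and NDUFA4L2).

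Oxidative phosphorylation couples the oxidation of NADH and succinate to the synthesis of ATP in the inner mitochondrial membrane. Complex I takes electrons from NADH and complex II from succinate, complex III passes them to cytochrome c, complex IV hands them to oxygen, and complex V, the ATP synthase, uses the proton gradient built on the way. The subunits are encoded in part by mitochondrial DNA, which is not among the genes described here, and in larger part by nuclear genes spread over many chromosomes. Many of their promoters are known to bind NRF1, factors of the ETS family such as GABP, and YY1.

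The arrays as a whole set the limits of these values. Detected probes made up 81.3% of gene probes on the shDKK3 array, 80.1% on shScr and 78.5% on parental, and the signal of the median probe less the blank mean was 18.2 on shDKK3, 28.4 on shScr and of a size between them on parental. The 24 positive control spots of an array varied with an SD of 0.08 (shDKK3), 0.14 (shScr) and 0.10 (parental) in log2 units, and those of the other positive control with 0.09, 0.19 and 0.13. DKK3, the targeted gene, was at 8.19 on shDKK3, 8.58 on shScr and 8.90 on parental, which is a log2 difference of -0.39 to shScr and -0.71 to parental. Of the markers of keratinocytes, 9 of 9 were detected on all arrays, though TP63 was dim (6.36, 6.49 and 6.26), and 4 of 8 fibroblast, 2 of 6 leukocyte and 1 of 4 endothelial markers were detected on no array, among them PDGFRA, PTPRC and TEK. Others of these lists were detected on all arrays, such as DCN (7.51, 7.31 and 7.35), KDR (6.64, 6.49 and 6.38) and CD68 (8.56, 7.71 and 7.94). CD68, a lysosomal protein abundant in macrophages, was 0.86 above shScr and 0.63 above parental. The keratins KRT14 (1.07 and 1.85) and KRT17 (1.20 and 2.13) were above the controls too. Both were also higher on shScr than on parental, by 0.78 and 0.92. Of the 9 keratinocyte markers, 6 were above shScr and 3 below it, such as PERP (-0.39) and DSG3 (-0.14). Against parental 7 were above and 2 below. The part of these markers in the members' differences was not tested. In cultures such as these, less RNA per cell and fewer cells that express a gene cannot be told apart.

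On these arrays the members had higher signal, as a set, on the shDKK3 array than on either control, but they did not move as 1 block. The median log2 difference of 87 compared members was 0.34 against shScr and 0.29 against parental, where the medians of all compared genes were 0.03 and 0.03. Against shScr, 14 members were at least 2-fold higher (2.96% of all compared genes were) and 1 was at least 2-fold lower (4.48% of all compared genes). Subunits of complex I made up 10 of the 14, and subunits of complex V the other 4. These were like shares of the compared subunits, 27.0% of 37 in complex I and 26.7% of 15 in complex V. Against parental only 2 members were at least 2-fold higher (0.862% of all compared genes) and 1 lower (3.04%). The split of 14 higher to 1 lower against shScr became 12 to 2 with scaling to the median (1.505% and 8.48% of all compared genes). The split of 2 to 1 against parental became 2 to 3 with that scaling (0.43% and 4.82%). That second split was 9 to 0 with scaling to the 75th percentile (1.35% and 2.61%). It was 2 to 2 with cyclic loess (0.62% and 3.78%) and 18 to 1 in the authors' deposited table (4.52% and 10.93%). With the background median that the scanner gave for each spot, the split against shScr was 10 to 10 and the members' median 0.0313, where 2.48% of all compared genes were higher and 2.72% lower. Pairs of values in brackets below are log2 differences to shScr and then to parental.

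The members are bright genes, and bright genes passed 2-fold more often in both directions. Their median normalised log2 intensity was 10.83 on shDKK3, 10.33 on shScr and 10.43 on parental, against 6.40, 6.41 and 6.41 over all genes. Among the 1366 genes at or above the lower quartile of the members' level (log2 9.55), 9.004% were higher than on shScr by 2-fold or more and 14.8% were lower. Of the 65 members in that range, 12 (18.5%) were higher by that much and 0 lower. Their median was 0.45, against 0.04 for all genes of that range. Against parental, 1 of these 65 members was higher and 1 lower by 2-fold or more, where 1.98% and 10.6% of the 1366 genes were, and between the controls 0 and 0 members were, where 1.76% and 3.88% of the genes were. This reference to bright genes was added after the data were seen.

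**Figure D1:**
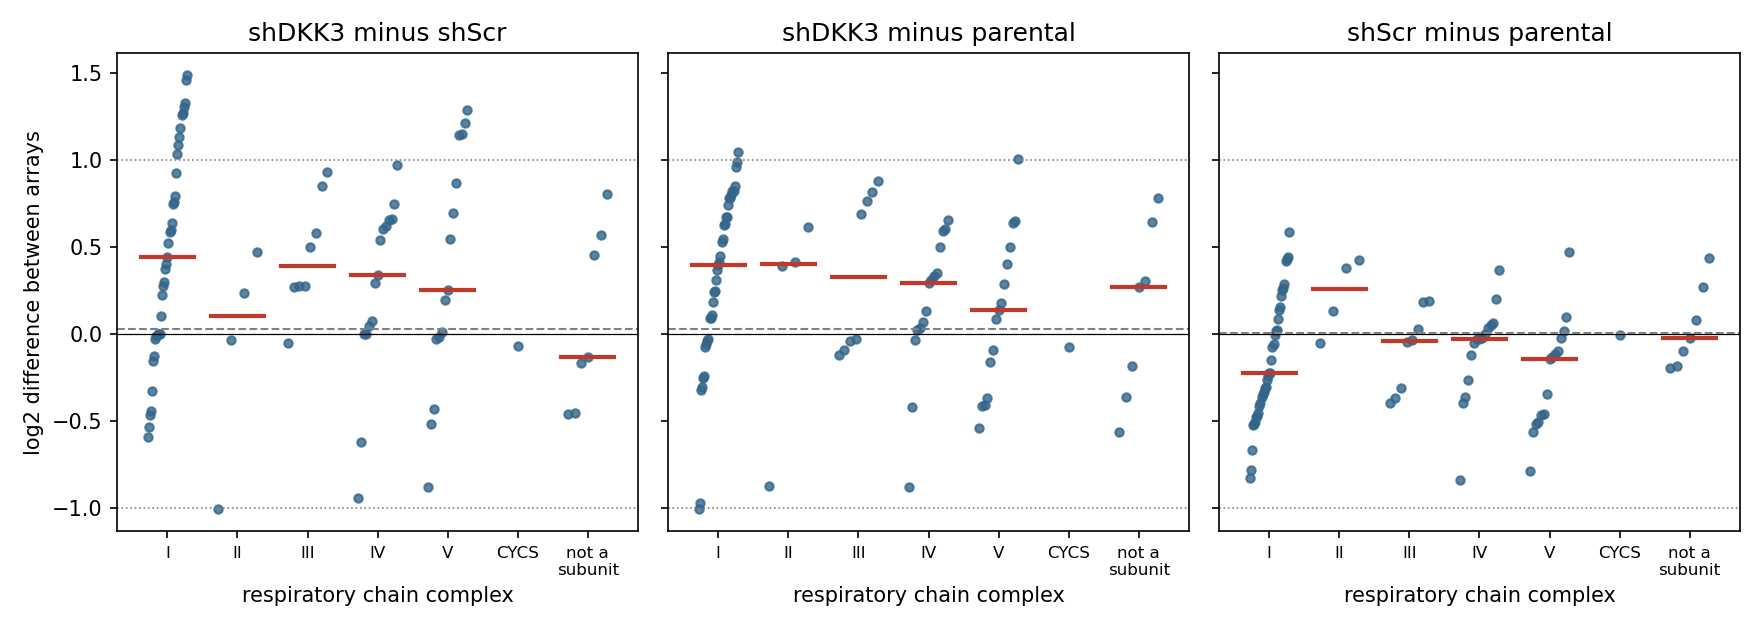
Log2 difference of each member detected on an array (points), by complex, for shDKK3 minus shScr, shDKK3 minus parental and shScr minus parental, with the median of each group (red bar), the median of all compared genes (dashed line) and 2-fold (dotted lines). All 14 members past 2-fold above shScr belong to complexes I and V, and no member reaches 2-fold between the controls.

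Between the control arrays the members lay slightly the other way. The median of shScr minus parental was -0.08, with 30 of 87 members above 0, and 0 members were 2-fold higher (0.404% of all compared genes) or lower (0.983%). All 14 members past 2-fold above shScr were also lower on shScr than on parental, by differences of -0.14 to -0.83. Against parental the same 14 genes differed by 0.50 to 1.04, with a median of 0.79. A choice by a high difference to shScr favours genes with a low value on that array, so this order of the controls is in part fixed by the choice and is only a description. Of the 87 detected members, 53 had their highest level on the shDKK3 array, and 21 had their lowest level there.

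Promoters are shown for 3 members that were at least 2-fold above shScr (NDUFS7, NDUFA7 and NDUFB7) and for the 2 members at least 2-fold below a control (SDHD and NDUFA5), to set the genes at both ends side by side. The sequences run 5′ to 3′ from 250 bases before to 50 bases after the start of the gene, as RefSeq gives it on GRCh38.p14. They lie at chr19:1383657-1383956 (plus strand), chr19:8321326-8321625 (minus strand), chr19:14572017-14572316 (minus strand), chr11:112086623-112086922 (plus strand) and chr7:123601602-123601901 (minus strand). Capitals mark matches on either strand to GCGCATGC (a core of the NRF1 motif), CCGGAAG (ETS) or AAGATGGC (YY1), and overlapping matches run together.
NDUFS7: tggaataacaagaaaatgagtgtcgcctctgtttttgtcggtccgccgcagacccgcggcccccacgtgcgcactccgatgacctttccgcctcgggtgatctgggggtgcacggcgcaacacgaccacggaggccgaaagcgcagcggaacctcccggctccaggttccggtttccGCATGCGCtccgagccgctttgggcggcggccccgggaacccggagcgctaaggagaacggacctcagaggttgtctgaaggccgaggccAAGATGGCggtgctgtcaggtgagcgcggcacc
NDUFA7: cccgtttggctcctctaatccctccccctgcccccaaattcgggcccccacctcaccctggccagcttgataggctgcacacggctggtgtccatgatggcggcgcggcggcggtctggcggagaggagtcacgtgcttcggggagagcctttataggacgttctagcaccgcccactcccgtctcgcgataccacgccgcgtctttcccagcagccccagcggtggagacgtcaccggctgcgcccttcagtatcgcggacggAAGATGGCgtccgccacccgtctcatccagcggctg
NDUFB7: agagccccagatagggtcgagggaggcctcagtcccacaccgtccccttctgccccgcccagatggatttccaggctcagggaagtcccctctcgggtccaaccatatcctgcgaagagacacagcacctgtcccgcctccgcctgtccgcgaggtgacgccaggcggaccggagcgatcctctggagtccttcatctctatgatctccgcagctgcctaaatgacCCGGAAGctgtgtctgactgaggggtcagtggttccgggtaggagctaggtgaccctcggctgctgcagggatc
SDHD: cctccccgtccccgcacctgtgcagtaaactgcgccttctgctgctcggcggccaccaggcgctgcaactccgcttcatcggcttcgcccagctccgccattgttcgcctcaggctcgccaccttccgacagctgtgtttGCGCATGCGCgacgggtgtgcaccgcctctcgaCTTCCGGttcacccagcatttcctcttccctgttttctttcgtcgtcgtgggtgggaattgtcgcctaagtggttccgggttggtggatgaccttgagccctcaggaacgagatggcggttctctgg
NDUFA5: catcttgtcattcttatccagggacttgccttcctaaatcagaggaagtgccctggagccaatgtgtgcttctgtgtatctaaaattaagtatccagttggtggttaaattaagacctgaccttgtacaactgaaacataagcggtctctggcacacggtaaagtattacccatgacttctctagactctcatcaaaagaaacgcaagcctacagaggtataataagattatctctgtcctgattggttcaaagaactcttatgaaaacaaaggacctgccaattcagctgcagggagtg

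The same letters were searched in the 71 members with a RefSeq promoter. The NRF1 letters were found in 14 of them (19.7%), against 4.26% of 15843 promoters of protein-coding genes of the same length. The ETS letters were found in 20 (28.2%, against 14.2%) and the YY1 letters in 11 (15.5%, against 3.91%). The matches were found in members at both ends of the range. Among the 12 members at least 2-fold above shScr that had a promoter, 2 held the NRF1 letters, 1 the ETS letters and 3 the YY1 letters, and among the 59 others 12, 19 and 8 did. Of these 59, 22 had a difference to shScr below 0, where 4 held the NRF1 letters, 4 the ETS letters and 3 the YY1 letters. The 22 were taken at any size of difference and without the detection filter. They include COX7B2, detected on no array, and CYCS (-0.07), which is among the 4 with the NRF1 letters. SDHD, the lowest member against shScr, held the NRF1 letters on both strands, as overlapping matches, and the ETS letters. NDUFA5, the lowest member against parental, held none of these letters. A match describes the sequence and is no evidence of binding.

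Complex I held the members with the largest differences. Its 37 compared subunits had a median of 0.44 against shScr and 0.40 against parental, and of -0.23 for shScr minus parental. Of its 6 core subunits on the array, 3 were at least 2-fold above shScr (2.96% of all compared genes were). Most of the 6 carry the flavin or iron-sulfur clusters. NDUFS7, which holds the last iron-sulfur cluster before ubiquinone, had a normalised log2 intensity of 9.67 on shDKK3, 8.18 on shScr and 8.85 on parental, which is 1.49 above shScr and 0.82 above parental. NDUFV1, the flavin subunit that binds NADH, was at 11.03, 9.77 and 10.24 in the same order (1.26 and 0.78 above). NDUFS8, an iron-sulfur subunit next to NDUFS7, was at 11.38, 10.34 and 10.71 (1.03 and 0.67 above). In all 3 genes shDKK3 was the highest array and shScr the lowest.

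The other core subunits passed 2-fold in neither direction. NDUFV2, the partner of NDUFV1 in the NADH-binding module, was lower on the shDKK3 array, at 11.26 against 11.80 on shScr and 11.52 on parental (-0.54 and -0.25), but in the authors' deposited table it was level with both controls (0.04 and 0.04) and with the local background it was above shScr (1.64). NDUFS3, a core subunit of the arm that faces the matrix, was 0.37 above shScr and 0.63 above parental. NDUFS1, the largest iron-sulfur subunit, gave a dim signal of 6.26 on shDKK3, 6.42 on shScr and 6.34 on parental, where the offset of the background correction leaves little room for a difference (-0.16 and -0.07).

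The accessory subunits of complex I surround the core and are needed for its assembly and stability. Among the 31 compared, 7 were at least 2-fold above shScr (2.96% of all compared genes were). NDUFB2 was at 11.29 on the shDKK3 array, 9.83 on shScr and 10.66 on parental (1.46 and 0.63 above), and its dimmer probe gave 1.32 and 0.77. NDUFA3 was at 11.25, 9.92 and 10.40 in that order (1.33 and 0.85 above), and NDUFA7 at 10.38, 9.07 and 9.59 (1.30 and 0.78 above). NDUFB7, a twin-cysteine protein on the intermembrane side, was the 1 complex I subunit past 2-fold against both controls, at 11.13, 9.86 and 10.08 (1.27 and 1.04 above). The rest of this group was NDUFB11 (1.18 and 0.96 above), NDUFA11 (1.13 and 0.80) and NDUFB10 (1.09 and 0.82).

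Next to 2-fold against parental lay NDUFA1, a short membrane subunit encoded on the X chromosome, at 11.41 on shDKK3, 11.01 on shScr and 10.43 on parental. It was 0.99 above parental but 0.40 above shScr, since shScr itself was 0.59 above parental, the largest such difference among the brightest probes of the members. NDUFV3 was above both controls by like amounts (0.75 and 0.74). Both NDUFB1 (0.92 and 0.41) and NDUFC1 (0.79 and 0.40) were further from shScr than from parental.

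A smaller group of complex I accessory subunits was lower on the shDKK3 array. NDUFA5, a subunit of the matrix arm, was at 9.34 on shDKK3, 9.93 on shScr and 10.35 on parental (-0.59 and -1.01), the 1 member at least 2-fold below parental. NDUFS4, a matrix-arm subunit whose loss causes Leigh syndrome in people, was at 9.34, 9.78 and 10.31 (-0.45 and -0.97). In both genes shDKK3 was the lowest array and shScr lay between. NDUFB3 (-0.47 and -0.04) and NDUFAB1, the mitochondrial acyl carrier protein (-0.33 and 0.09), were below shScr and near parental. In the authors' deposited table NDUFAB1 was above both controls (0.19 and 0.37). NDUFC2 was level on its brighter probe (-0.03 and 0.11), but its dimmer probe was at 6.45 on shDKK3, 7.51 on shScr and 6.54 on parental (-1.06 and -0.10), so its probes disagree on shScr. NDUFA4, now placed in complex IV but counted here by its name, was at 12.57 on shDKK3, 11.81 on shScr and 12.60 on parental, where shScr alone was low.

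**Figure D2:**
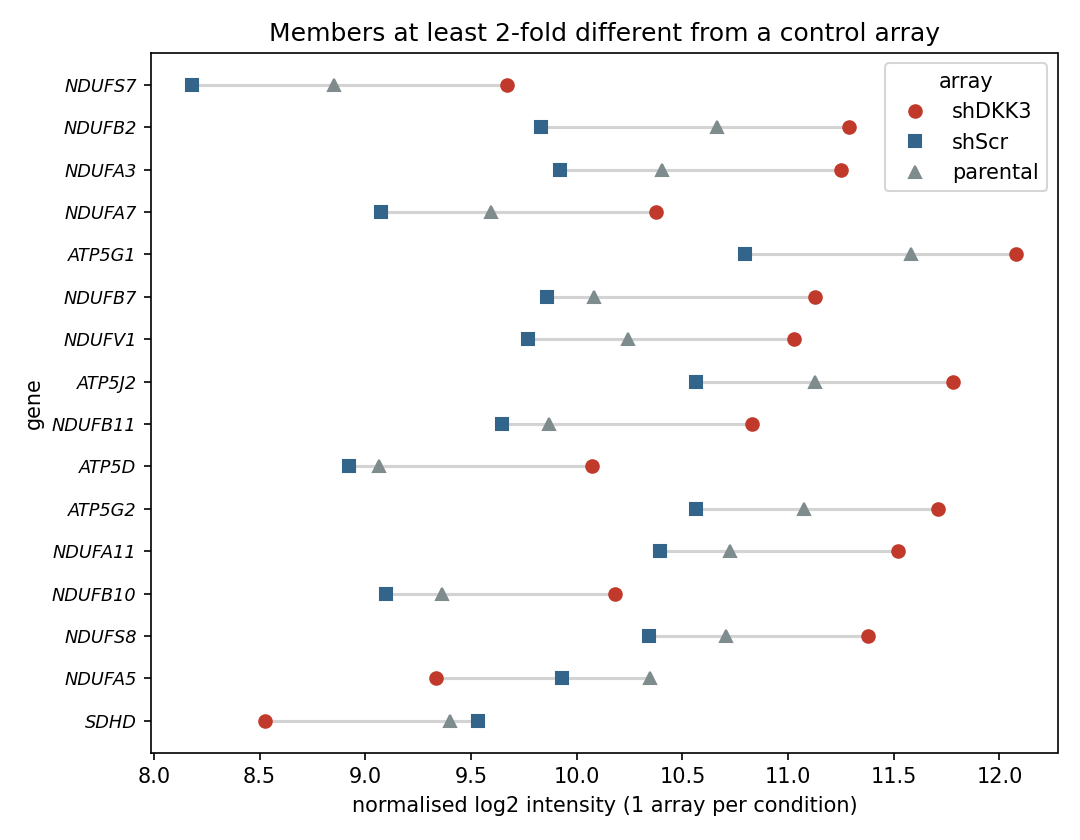
Normalised log2 intensity (x axis) of the 16 members at least 2-fold different from a control array, on the shDKK3 (circles), shScr (squares) and parental (triangles) arrays, 1 array each. In the 14 upper genes, chosen by their difference to shScr, shDKK3 is highest and shScr lowest, and in NDUFA5 and SDHD shDKK3 is lowest.

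Complex II, succinate dehydrogenase, which is also an enzyme of the TCA cycle, split between its subunits. SDHD, which with SDHC anchors the enzyme in the membrane, was at 8.53 on the shDKK3 array, 9.53 on shScr and 9.40 on parental (-1.01 and -0.87), the 1 member at least 2-fold below shScr. The controls lay within 0.13 of each other for this gene. SDHC, its partner, was higher at 10.76, 10.29 and 10.34 (0.47 and 0.41 above), and its dim other probe gave 0.10 and 0.13. With the local background SDHC was at -0.14 and -0.08, and SDHD at -0.84 and -0.75. The iron-sulfur subunit SDHB was at 11.60, 11.37 and 10.99 (0.23 and 0.61 above), and the flavoprotein SDHA at 10.03, 10.06 and 9.64 (-0.03 and 0.39). The 4 genes had a median of 0.10 against shScr (-0.02 with scaling to the median) and 0.40 against parental.

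In complex III, the cytochrome bc1 complex, 7 of 8 subunits were above shScr and 4 of 8 above parental, with medians of 0.39 and 0.33, and 0 passed 2-fold. The median against shScr was -0.06 with the local background, as it was -0.01 for complex IV and -0.05 for complex II. The core protein UQCRC1 was at 10.71 on shDKK3, 9.78 on shScr and 9.83 on parental (0.93 and 0.88 above), while its companion UQCRC2 was at 9.50, 9.22 and 9.59 (0.28 and -0.10). UQCRQ, a small accessory subunit, was at 12.54, 11.69 and 11.72 (0.85 and 0.81 above). CYC1, which carries the haem of cytochrome c1, was at 12.73, 12.15 and 11.97 (0.58 and 0.76 above). UQCRFS1, the Rieske iron-sulfur protein, was 0.27 above shScr and 0.04 below parental (-0.04). With the local background CYC1 stayed above both controls (0.39 and 0.66), while UQCRC1 (-1.56 and -0.56) and UQCRQ (-4.09 and -0.05) did not. The UQCRB and CYCS probes gave signals near the blanks (CYCS was not detected on shDKK3), at 5.81 on shDKK3, 5.87 on shScr and 5.84 on parental for UQCRB and at 5.79, 5.87 and 5.87 for CYCS, the mobile electron carrier between complexes III and IV, so neither shows a level of the gene.

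Complex IV, cytochrome c oxidase, had a median of 0.34 against shScr and 0.29 against parental over 15 compared genes, and 0 passed 2-fold. COX8A, a short transmembrane subunit, was at 13.19 on shDKK3, 12.22 on shScr and 13.06 on parental (0.97 and 0.13 above), so that shScr stood apart. COX5A, at 11.52, 10.78 and 11.18 (0.74 and 0.35 above), lay in the same order. COX4I1, the common isoform of the subunit that binds ATP, was at 12.66, 12.00 and 12.06 (0.66 and 0.60 above), with the controls alike. Also above both controls were COX6A1 (0.62 and 0.50), COX6B1 (0.60 and 0.33), COX7A2 (0.29 and 0.66) and COX7A2L (0.54 and 0.59), a factor that joins complexes III and IV into supercomplexes.

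Against these, COX6C, a small transmembrane subunit encoded on chromosome 8, was at 10.77 on shDKK3, 11.71 on shScr and 11.65 on parental (-0.94 and -0.88). COX7B was at 12.01, 12.64 and 12.44 (-0.62 and -0.42). Both were lower than on each control, and the controls differed by 0.06 for COX6C and 0.20 for COX7B. In the authors' deposited table COX7B (0.07 and -0.09) was near both controls, while COX6C (-0.43 and -0.66) stayed below them. With the local background COX6C was at -3.50 and 0.01. The isoforms known from lung, heart and skeletal muscle or testis were mostly dim on every array. COX4I2, COX6A2 and COX7A1 lay between 5.93 and 6.13, with differences of -0.04 to 0.07 from the controls. COX8C was at 5.81 on shDKK3, 5.81 on shScr and 5.78 on parental, and COX7B2 was not detected. COX6B2, a testis isoform, was dim but measurable at 7.19 on shDKK3, 6.53 on shScr and 6.90 on parental (0.66 and 0.29 above).

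Complex V, the ATP synthase, held 4 of the 14 members past 2-fold above shScr. They were 26.7% of its compared subunits, where the share in complex I was 27.0%. The 15 compared subunits of complex V had a median of 0.25 against shScr and 0.14 against parental. In the catalytic F1 part, ATP5D (now ATP5F1D), the delta subunit of the central stalk, was at 10.07 on shDKK3, 8.92 on shScr and 9.07 on parental (1.15 and 1.005 above), which with NDUFB7 makes the 2 members past 2-fold against both controls. ATP5B (now ATP5F1B), the catalytic beta subunit, was at 13.15, 12.28 and 12.75 (0.87 and 0.40 above). ATP5A1 (now ATP5F1A), the alpha subunit that alternates with beta in the same ring, was level at 11.98, 11.97 and 12.07 (0.01 and -0.09). The gamma subunit ATP5C1 (now ATP5F1C), at -0.03 and -0.16, and the epsilon subunit ATP5E (now ATP5F1E), at -0.02 and -0.37, were level with shScr. These values depended on the setting. Against shScr, the local background gave -0.94 for ATP5A1, -0.76 for ATP5B, 0.9996 for ATP5C1 and 1.49 for ATP5E. The authors' deposited table gave 0.61, 1.66, 0.51 and 0.25 in that order.

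The membrane part and outer stalk of complex V held members at both ends. ATP5G1, ATP5G2 and ATP5G3 (now ATP5MC1, ATP5MC2 and ATP5MC3) encode the same mature c subunit of the proton-turning ring, with different import sequences. ATP5G1 was at 12.08 on shDKK3, 10.80 on shScr and 11.58 on parental (1.28 and 0.50 above). ATP5G2 was at 11.71, 10.57 and 11.07 (1.14 and 0.64 above). ATP5G3 was at 12.70, 12.51 and 12.41 (0.19 and 0.29 above), so that 2 of the 3 genes for this subunit were past 2-fold against shScr. ATP5J2 (now ATP5MF), the f subunit, was at 11.78, 10.57 and 11.13 (1.21 and 0.65 above), and its other probe was near the blanks.

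The lower members of complex V were subunits of the outer stalk and its neighbours. ATP5L (now ATP5MG), the g subunit, was at 7.16 on shDKK3, 8.05 on shScr and 7.57 on parental (-0.88 and -0.41). ATP5F1 (now ATP5PB), the b subunit of the outer stalk, was at 12.04, 12.56 and 12.59 (-0.52 and -0.54), and its other probe gave -0.60 and -0.74. ATP5O (now ATP5PO), which caps that stalk, was at 10.69, 11.12 and 11.10 (-0.43 and -0.42). For ATP5F1 and ATP5O the controls were alike and shDKK3 was the lowest array. In the authors' deposited table ATP5F1 (0.14 and -0.26) and ATP5O (0.05 and -0.20) were above shScr and below parental. With the local background ATP5F1 was further below shScr (-2.84) and 0.07 above parental. ATP5O was 0.12 above shScr with that background and stayed below parental (-0.38). The outer stalk was not uniform, since ATP5H (now ATP5PD; 0.25 and 0.14) and ATP5J (now ATP5PF; 0.55 and 0.09) were above both controls.

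The 7 genes caught by name alone had a median of -0.13 against shScr and 0.27 against parental. The complex I assembly factors NDUFAF1 (-0.45 and -0.19) and NDUFAF2 (0.45 and 0.27) lay on opposite sides. ATP5SL (now DMAC2), another factor of complex I assembly, was 0.57 and 0.65 above the controls, ATP5S (now DMAC2L) was at -0.17 and -0.37, and COX4NB (now EMC8), a neighbour of COX4I1 with no part in respiration, at -0.13 and 0.30. The pseudogenes ATP5EP2 and ATP5J2P3 resemble ATP5E and ATP5J2 closely, so the source of their signal is uncertain. The probes of ATP5J2P3 disagreed, at 0.80 and 0.78 above the controls for the brighter and -0.76 and -0.64 for the dimmer.

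Members that stood apart from both controls were counted at a lower threshold of 1.5-fold. There were 18 above both (4.61% of all compared genes) and 3 below both (6.87%), of 87 members. The 18 were 11 complex I subunits, UQCRC1 and UQCRQ of complex III, COX4I1 of complex IV, ATP5D, ATP5G2 and ATP5J2 of complex V, and the pseudogene ATP5J2P3. The 3 were NDUFA5, SDHD and COX6C. Both comparisons use the shDKK3 array, so they are not independent. At 1.5-fold in a single comparison, 32 members were higher and 5 lower than on shScr (9.54% and 11.5% of all compared genes), 27 higher and 4 lower than on parental (6.83% and 9.38%), and 1 higher and 5 lower on shScr than on parental (3.03% and 3.78%). For genes as bright as the 16 members past 2-fold, shScr minus parental had a robust SD of 0.40 to 0.51, which is the only measure of spread between arrays at hand and includes any effect of the vector and puromycin.

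The other lists of mitochondrial genes held members on both sides of shScr. Over all compared genes, 2.96% were at least 2-fold above shScr and 4.48% at least 2-fold below. Of 75 mitochondrial ribosomal protein genes, 4 were at least 2-fold above shScr and 11 below, with a median of 0.09 (0.28 against parental). Of 22 genes of the TCA cycle and pyruvate entry, 3 were above and 3 below, with a median of 0.23. MDH2, mitochondrial malate dehydrogenase, was 1.35 above shScr and 1.23 above parental, and IDH2, the NADP-dependent isocitrate dehydrogenase, 1.25 and 1.06, while PDHX, a structural protein of pyruvate dehydrogenase, was at -1.50 and -0.59.

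Of 18 genes of mitochondrial biogenesis and transcription, 0 were at least 2-fold above shScr and 3 below (4.48% of all compared genes), and the median was -0.04, with 8 above 0. TFAM, which packages mitochondrial DNA and starts its transcription, was at 7.96 on shDKK3, 9.56 on shScr and 9.61 on parental (-1.60 and -1.65). TFB2M, its partner at mitochondrial promoters, was at -1.43 and -0.98, and MTERFD1 (now MTERF3), a regulator of mitochondrial transcription, at -1.05 and -0.57.

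Among assembly factors, 0 of 13 for complex I passed 2-fold against shScr in either direction. Of all compared genes, 2.96% were higher by that much and 4.48% lower. For complex IV, 2 of 15 were higher, HIGD2A (1.07) and the copper chaperone SCO2 (1.03). For complexes II, III and V, 1 of 9 was lower, TMEM70, needed to assemble the ATP synthase (-1.14). Among 18 inner membrane carriers and porins, 2 were higher, the citrate carrier SLC25A1 (1.36) and the oxoglutarate carrier SLC25A11 (1.06). Among 12 genes of a coenzyme Q list, 1 was lower, COQ10B (-1.34). The lists added after the data were seen gave 2 higher and 4 lower of 77 cytosolic ribosomal protein genes (2.6% and 5.2%, median 0.08). They gave 1 higher and 8 lower of 39 proteasome genes (2.6% and 20.5%, median -0.14). Whether the members differ from these lists was not tested.

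**Figure D3:**
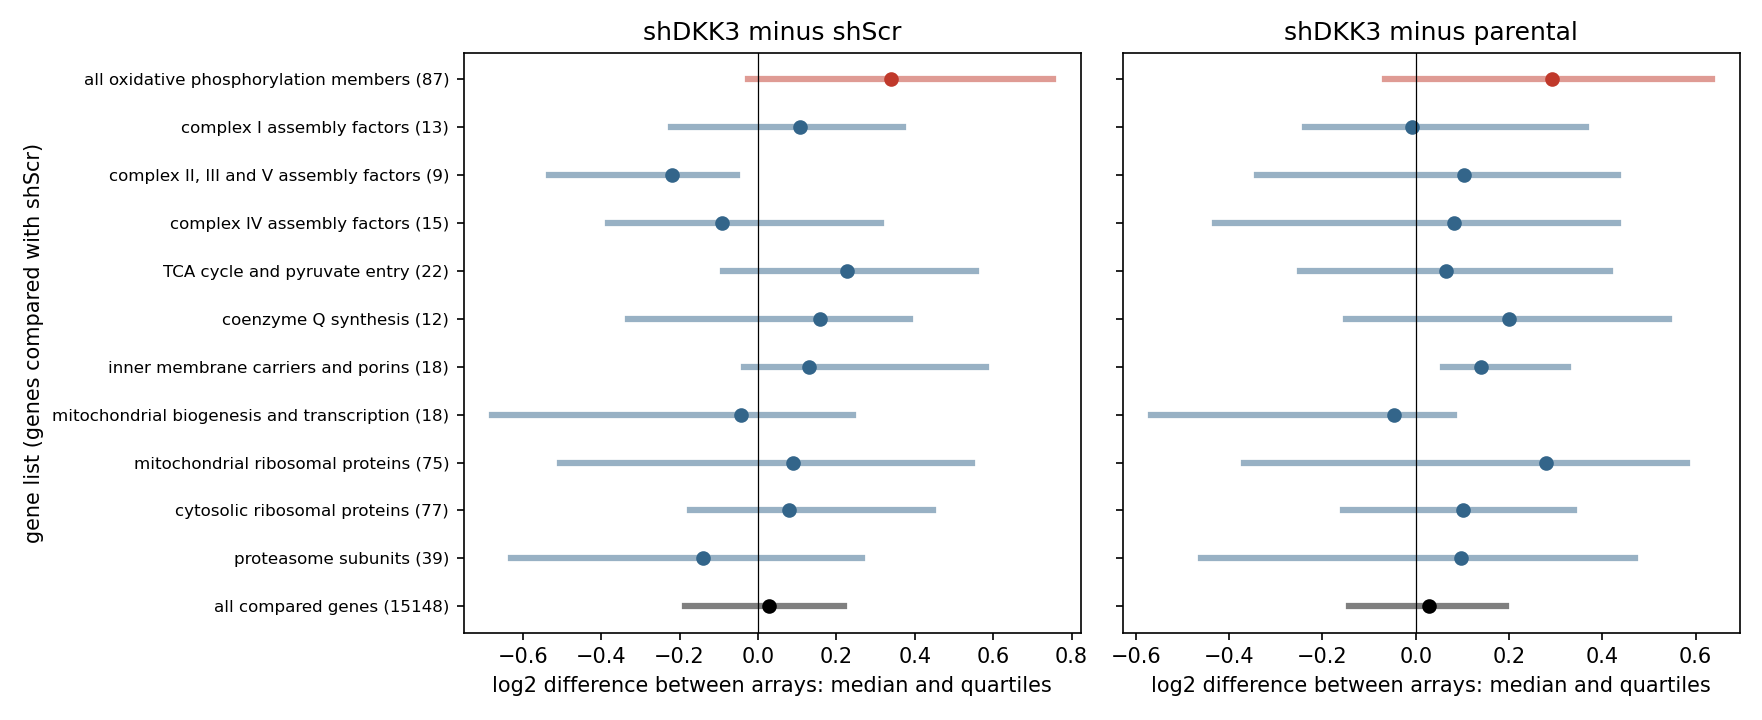
Median (points) and quartiles (bars) of the log2 difference over genes of each list, for shDKK3 minus shScr and shDKK3 minus parental, with the number of genes compared with shScr in brackets. The oxidative phosphorylation members have a median of 0.34 against shScr and 0.29 against parental, and most bars cross 0, except that of the complex II, III and V assembly factors against shScr and that of the carriers against parental.

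Gene length and chromosome moved with these differences. The members are short, with a median genomic length of 10.2 kb against 26.0 kb for all compared genes. Among the 43 members under 10 kb the median difference to shScr was 0.58, and among the 43 longer ones 0.10. Spearman's rho between length and the difference to shScr was -0.35 over 86 members and -0.24 over 15073 genes, all from the same arrays, and -0.31 and -0.30 for the difference to parental. After removing the trend with length over all genes, the members' median was 0.25 against shScr, with 12 at least 2-fold higher, and 0.26 against parental, with 0 at least 2-fold higher. Of the 13 members on chromosome 19, 6 were at least 2-fold above shScr and the median was 0.66, against 8 of 73 and 0.27 for members on other chromosomes. Of all compared genes of chromosome 19, 3.93% were at least 2-fold above shScr and the median was 0.10, against 2.88% and 0.02 on other chromosomes. Among the autosomes, that share was larger on chromosomes 16 (5.73%), 7 (5.53%) and 22 (5.32%). The median of chromosome 22 was higher too (0.13). The part of gene length and chromosome in the members' differences was not tested further.

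**Figure D4:**
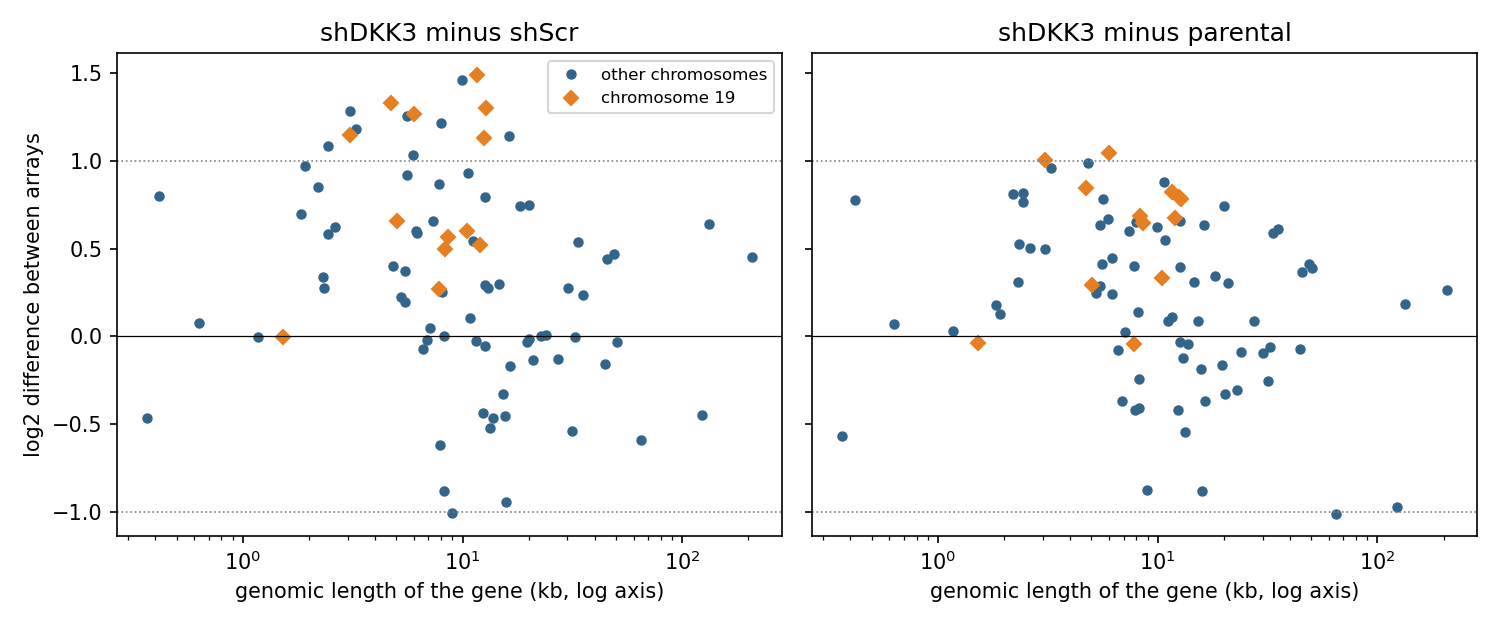
Log2 difference of each detected member against the genomic length of its gene (kb, log axis), for shDKK3 minus shScr and shDKK3 minus parental. Diamonds mark the 13 members on chromosome 19, of which 6 lie at least 2-fold above shScr, and the median falls to 0.10 among members of 10 kb or longer.

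With the local background, 28 of 87 members had the other sign against shScr and 26 against parental. Of the 44 members at least 0.5 from shScr in either direction, 13 turned. Beside UQCRC1, UQCRQ and NDUFV2, these were COX6A1 (-4.99), NDUFS8 (-2.92), NDUFV1 (-1.99), NDUFA11 (-1.57), ATP5J (-0.82), ATP5B (-0.76), NDUFB10 (-0.22), NDUFA3 (-0.22), ATP5J2 (-0.13) and COX8A (-0.08), each now below shScr. NDUFS7, the member furthest above shScr, was 0.08 above it with this background and NDUFA7 0.03. Of the 14 members past 2-fold above shScr, 4 stayed past it.

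**Figure D5:**
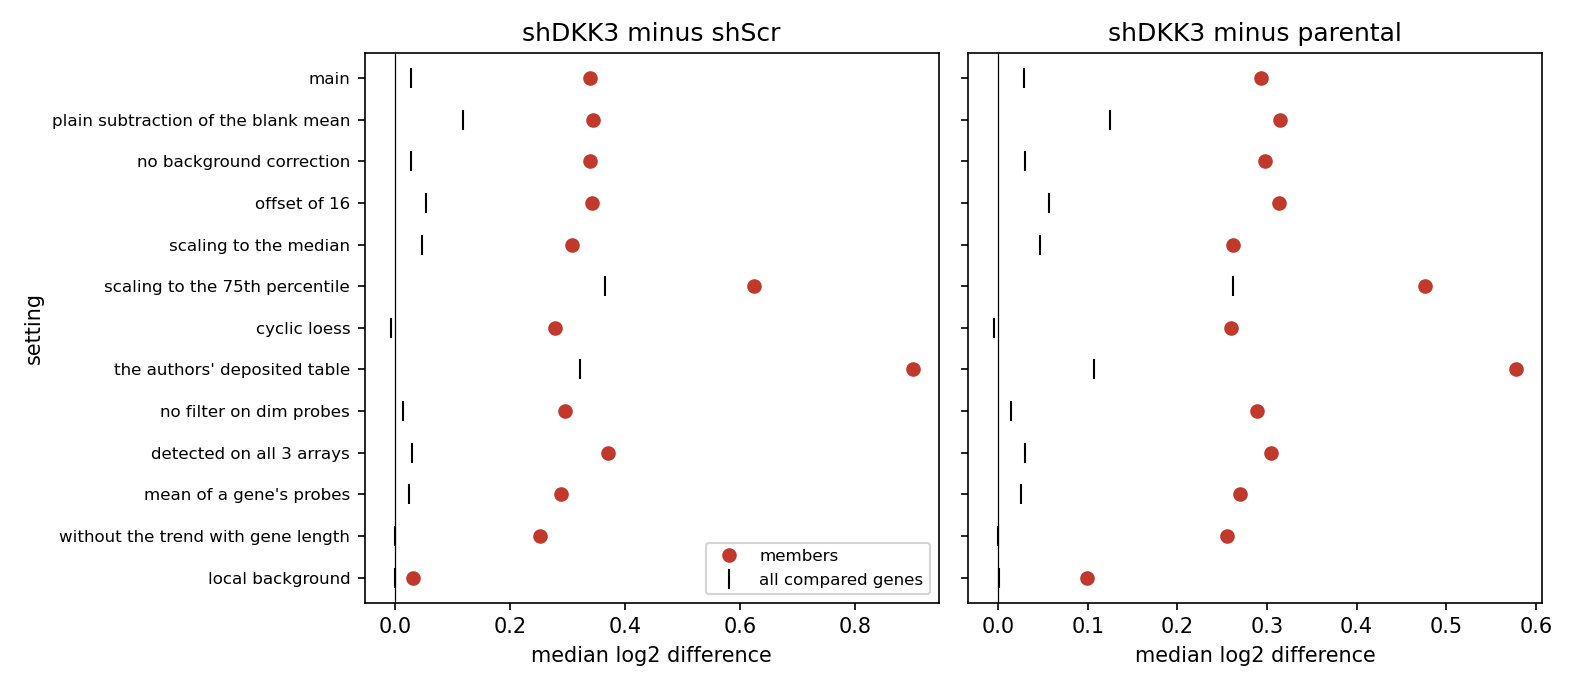
Median log2 difference of the members (circles) and of all compared genes (bars) under the setting used and 12 alternatives, for shDKK3 minus shScr and shDKK3 minus parental. The members' median lies above that of all genes in every setting shown, by the least with the local background (0.03 for the members against shScr).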

How the data were processed

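Cy5-labelled amplified RNA was hybridised to 1-colour arrays, 1 per condition, and groups were taken from the shRNA labels. The deposited intensity values used are the red-channel spot medians of the scanner output, for which the file headers give least-squares fits between scans at 3 gains. They are not background subtracted, and the scanner software is not given in the sources used here. The authors' deposited table of normalised intensity (median 25 on each array) is linear in the spot median. Its method is not stated, so it served as an alternative.

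Spot medians of all spots were corrected with normexp (limma 3.58.1, R 4.3.3, offset 50), which shrinks the differences of dim genes. The log2 values of 24451 gene probes were then quantile normalised (9 probes not marked good were left out). A gene was represented by its brightest probe and compared where the brighter of both arrays detected it. A call is a log2 difference of at least 1. Symbols came from the platform annotation, and lengths and current names from RefSeq (GRCh38.p14), which matched 88 of 89 members (not NDUFA4). The running median of the length trend spanned 501 genes.

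The normalisation recovered known folds on simulated data, in which a small set of bright probes was changed equally in both directions. The simulation does not show how it performs where bright genes change unequally, as on these arrays. The rule for named genes took members past 2-fold, the extremes and core subunits of each complex, isoform families, disagreeing probes, and up to 3 members of other lists. Other members named here were chosen after their values were seen. The members and lists were chosen with earlier results of these data known.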

Additional observations from a re-analysis of the deposited data

How the results depend on the processing

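No paired analysis was possible because each condition has 1 array, and for the same reason no array could be left out. A median counted as moved where it changed by more than the largest SD within an array of the first positive control (0.14), and a gene where it changed by more than the robust SD between the control arrays. Among alternatives for the named genes, 1442 of 1610 values stayed within that spread, and 146 of 180 values for the medians of single complexes did. With the SD of the other control (0.19) 1 shift fewer would count, that of the median against parental with the 75th percentile. Dimness limits CYCS, UQCRB, NDUFS1 and the tissue isoforms.

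Scaling to the 75th percentile and the authors' deposited table moved the median of all genes against shScr to 0.36 and 0.32. In the authors' table the members also moved away from all genes, with a gap between the medians of 0.58 against shScr and 0.47 against parental, where it was 0.31 and 0.26. No reference of bright genes was computed for that table, so whether the wider gap is particular to the members was not tested. With the 75th percentile and the authors' table the members' medians were 0.63 and 0.90 against shScr, and 0.48 and 0.58 against parental. For shScr minus parental the members' median was -0.37 in the authors' table. With these settings 23 and 34 members were at least 2-fold above shScr (3.62% and 14.8% of all compared genes), and 9 and 18 above parental (1.35% and 4.52%). Against parental 0 were lower with the 75th percentile (2.61%), and between the controls 3 were lower in the authors' table (6.36%). Plain subtraction of the blank mean gave 3 members lower than shScr (14.3%), and 4 higher and 3 lower than parental (4.69% and 10.95%). An offset of 16 gave 2 lower than shScr and 2 lower than parental (7.70% and 5.23%), scaling to the median 2 and 3 (8.48% and 4.82%), and cyclic loess 2 and 2 (5.77% and 3.78%). Without the trend with gene length 0 were higher and 0 lower than parental (0.591% and 3.06%).

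A threshold of 1.5-fold gave 32 higher and 5 lower members against shScr (9.54% and 11.5% of all compared genes). It gave 27 and 4 against parental (6.83% and 9.38%), and 1 and 5 for shScr minus parental (3.03% and 3.78%). A threshold of 3-fold left 0 and 0 against shScr (0.383% and 0.739%) and 0 and 0 against parental (0.0869% and 0.247%).

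The deposited background median tracks the spot it belongs to (log2 values across gene probes, r of 0.976 on shDKK3, 0.949 on shScr and 0.973 on parental). Used as a local background, it gave medians of 0.0313 against shScr and 0.10 against parental, with 10 members higher and 10 lower than shScr by 2-fold or more, 9 and 2 against parental (1.478% and 1.69% of all compared genes), and 14 and 6 for shScr minus parental (1.53% and 1.45%). Among members past 2-fold, it reversed ATP5J2 (-0.13), NDUFA11 (-1.57), NDUFA3 (-0.22), NDUFB10 (-0.22), NDUFS8 (-2.92) and NDUFV1 (-1.99) against shScr and NDUFA5 (0.15) against parental. The cause of these changes was not tested. Of the 14 members past 2-fold above shScr, 4 stayed past it with the local background and 9 in the other 11 alternatives in which the threshold was kept. The exceptions were ATP5D, NDUFB10, NDUFB11 and NDUFS8 with scaling to the median, NDUFB10 and NDUFS8 without the length trend, and ATP5J2 with the mean of its probes.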
